A study of Mus musculus with 6 samples.

Results

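The 10 chemokine ligand genes linked to inflammation of the retina described here are Ccl2, Ccl3, Ccl4, Ccl5, Ccl7, Ccl12, Cxcl10, Cxcl12, Cxcl16 and Cx3cl1. They were chosen by name, by taking every probe that is not a control spot and whose gene name or RefSeq identifier belongs to one of them. This gave 10 genes on 11 probes, of 39429 probes on the array, and Cxcl12 alone had more than 1 probe. Of the 10 genes, 9 were bright enough to be tested, among 24079 genes tested in all, and Ccl7 was not.

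Retinas of adult male C57BL/6 mice were profiled on 6 dual-colour Agilent arrays, 3 for each of the compounds SH-42 and SH-80, which are known here only by these code names. SH-42 mice and SH-80 mice had been given 1 µM of the compound, and control mice phosphate-buffered saline (PBS), as an injection into the vitreous of the right eye. Each group had 12 mice, eyes were taken at day 7, and each tube held 4 pooled retinas. Per the labels, Cy3 (green) carries the RNA of a compound group on every array, Cy5 (red) carries control RNA, and the dyes were never exchanged. A dye effect particular to a gene therefore stays in its ratio and cannot be told apart from an effect of the compound. With 12 control mice there could be only 3 control tubes for 6 arrays, so some arrays may hold the same control RNA. The p-values measure the spread between arrays, which may be partly technical.

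Chemokines are small secreted proteins that bind G protein-coupled receptors on leukocytes and draw these cells along a gradient. In the retina they are made by microglia, Müller glia, astrocytes, endothelium and neurons, and several are known to be induced after injury. Ccl2, Ccl7 and Ccl12 act through Ccr2 of monocytes, and Cxcl10 through Cxcr3 of T and NK cells. Ccl3, Ccl4 and Ccl5 draw macrophages, T cells and NK cells. Cxcl12 acts through Cxcr4 and the scavenger Ackr3. Cxcl16 and Cx3cl1 (fractalkine) are made as membrane-anchored proteins that proteases can shed, with Cxcr6 and Cx3cr1 as their receptors.

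Promoter sequences were found in the RefSeq tables for 5 of the 10 genes (build GRCm38.p6). Over the 6 arrays the Cy5 signal spanned 2.76 log2 units for Ccl3, 1.90 for Ccl12, 1.75 for Cxcl10 and 1.07 for Cx3cl1. The median span over all genes was 0.38. For Cxcl12 the Cy5 span differed between its probes, at 0.61 log2 units on the brightest and 1.51 on the other. A link between these spans and the promoter sequences was not tested. Each line gives the 250 bases before the annotated transcription start, 5′ to 3′ on the gene's strand, with capitals marking matches to 5 motifs searched on both strands. Ccl3 is at chr11:83649379-83649628 (minus strand), Ccl12 at chr11:82101595-82101844 (plus), Cxcl10 at chr5:92348890-92349139 (minus), Cxcl12 at chr6:117168285-117168534 (plus) and Cx3cl1 at chr8:94771930-94772179 (plus).
Ccl3: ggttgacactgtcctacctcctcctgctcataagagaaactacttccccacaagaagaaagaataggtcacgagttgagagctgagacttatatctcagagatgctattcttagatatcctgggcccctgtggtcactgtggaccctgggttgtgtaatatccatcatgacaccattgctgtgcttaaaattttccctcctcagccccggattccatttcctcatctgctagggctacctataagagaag
Ccl12: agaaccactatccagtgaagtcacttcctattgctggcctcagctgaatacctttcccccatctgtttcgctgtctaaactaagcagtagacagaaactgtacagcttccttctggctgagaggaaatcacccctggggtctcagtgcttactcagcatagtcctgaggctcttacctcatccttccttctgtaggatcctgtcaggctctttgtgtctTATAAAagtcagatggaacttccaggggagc
Cxcl10: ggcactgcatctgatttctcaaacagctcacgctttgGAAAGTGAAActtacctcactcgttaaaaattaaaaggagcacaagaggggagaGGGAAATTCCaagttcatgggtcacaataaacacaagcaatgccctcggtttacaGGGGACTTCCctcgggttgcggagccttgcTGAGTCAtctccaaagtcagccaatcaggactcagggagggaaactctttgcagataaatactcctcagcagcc
Cxcl12: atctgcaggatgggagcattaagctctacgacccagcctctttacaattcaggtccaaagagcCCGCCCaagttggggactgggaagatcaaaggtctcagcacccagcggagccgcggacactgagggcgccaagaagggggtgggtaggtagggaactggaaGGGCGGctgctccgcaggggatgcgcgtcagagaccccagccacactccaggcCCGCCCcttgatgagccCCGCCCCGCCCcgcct
Cx3cl1: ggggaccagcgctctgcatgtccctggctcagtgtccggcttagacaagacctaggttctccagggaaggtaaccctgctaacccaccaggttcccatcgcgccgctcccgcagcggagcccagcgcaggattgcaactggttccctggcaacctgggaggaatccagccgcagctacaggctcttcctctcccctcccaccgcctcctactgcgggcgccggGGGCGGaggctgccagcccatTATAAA

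The Cxcl10 window held matches to 3 motifs of inflammatory transcription factors. It has 2 NF-kB matches (GGG and TTCC with any 3 bases between them), whose last bases lie 150 and 95 bases before the start, and 4.65% of 32851 windows of this length hold at least 1. It also has 1 interferon-stimulated response element (GAAA, any 2 bases, GAAA, in 2.98% of windows) and 1 AP-1 match (TGANTCA, N being any base, in 6.75%). The TATA motif (TATAAA, in 12.4%) was matched in Ccl12, where it ends 26 bases before the start, and in Cx3cl1, where it ends right before it. The GC box (GGGCGG, in 32.7%) was matched 5 times in Cxcl12, where 2 of the matches overlap by a base, and 1 time in Cx3cl1. None of the 5 motifs was found in the Ccl3 window. The Cxcl12 and Cx3cl1 windows had a GC content of 64.4% and 64.8%, with 14 CpG each. Ccl3, Ccl12 and Cxcl10 lay at 46.8%, 48.4% and 48%, with 2, 1 and 5 CpG, against a median of 52.4% over all windows. A match is a string of letters and was not tested as a binding site.

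**Figure D1:**
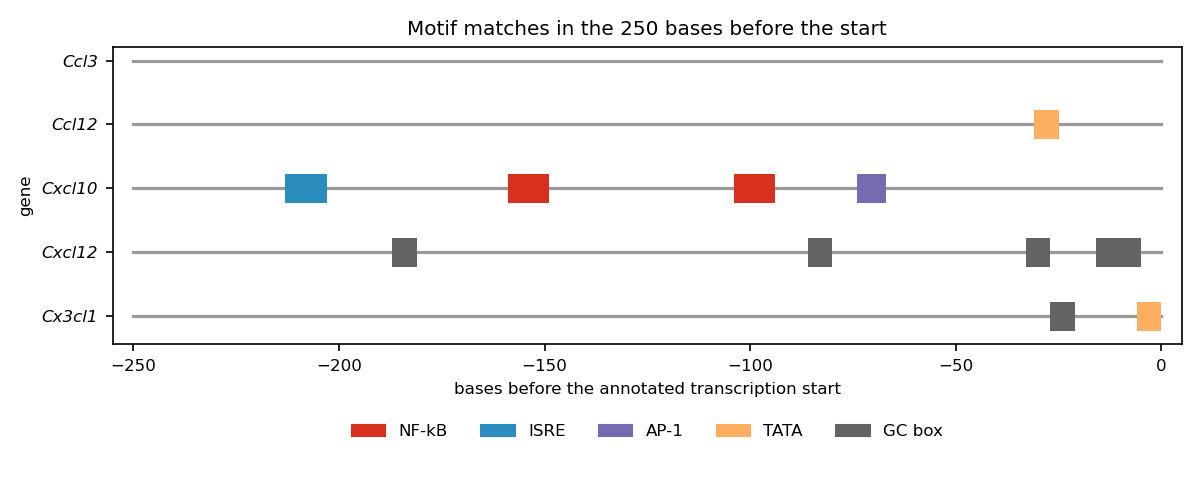
Motif matches in the 250 bases before the annotated transcription start of the 5 genes with a promoter sequence; the x axis is the distance to the start in bases, each row is a gene, and coloured boxes mark matches on either strand. Cxcl10 holds the ISRE, both NF-kB matches and the AP-1 match, Cxcl12 and Cx3cl1 hold GC boxes, and Ccl3 holds none of the motifs.

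The share of spots well above background was 58.3% to 63.1% for Cy3 and 70.9% to 76.7% for Cy5, and 0 spots were saturated. SH-42 replicate 1 stood apart from the other arrays. Genes are not independent replicates. Across 18228 of them, the r of its log ratios with any other array was -0.28 to 0.09, against 0.47 to 0.89 for the remaining 10 pairs. The Cy3 channels correlated at 0.997 to 0.999 in all pairs. In Cy5, the pairs with SH-42 replicate 1 lay at 0.947 to 0.966 and the others at 0.988 to 0.997. SH-42 replicates 1 and 2 were on slide 1, and SH-42 replicate 3 and all SH-80 arrays on slide 2. All 7 rod markers, Gnat1 among them, were well above background in both channels on all 6 arrays.

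None of the 9 ligand genes tested passed the threshold (0 of 9, limma with Benjamini-Hochberg adjusted p under 0.05) for SH-42 or for SH-80 against control. Of all 24079 genes, 0.602% passed for SH-42 (0.0581% as positive and 0.544% as negative) and 14.7% for SH-80 (4.62% and 10.1%). By an unadjusted p under 0.05, 0 of 9 ligand genes were counted for SH-42 (23.5% of all genes). For SH-80 the count was 3 of 9 (35.5%), namely Ccl2, Ccl12 and Cxcl12. Log ratios are given as Cy3 over Cy5 on the log2 scale, which the labels make compound over control. The deposited value table runs Cy5 over Cy3, which by itself does not say which RNA each dye carries. The direction rests on the labels alone and was not settled by the values. Positive means only that Cy3 was brighter than Cy5, and every sign would turn if Cy5 held the RNA of the compound groups. In whole retina, fewer cells of a type and less RNA per cell cannot be told apart.

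Ccl2 is the main monocyte attractant among the Ccr2 ligands, and its probe A_51_P286737 was spotted 10 times on each array. Its log2 ratios were -1.73, -0.06 and 1.03 on SH-42 replicates 1 to 3, and 1.53, 0.96 and 1.68 on SH-80 replicates 1 to 3. The repeat spots of an array differed little, with an SD of 0.035 to 0.12 log2 units. The SH-42 arrays thus ranged from clearly negative to clearly positive, whereas the SH-80 arrays were all positive, and the groups overlapped. The normalized log2 signal of Cy3 was between 8.95 and 9.0 on all 6 arrays. In Cy5 it was 10.73, 9.01 and 7.95 on the SH-42 arrays and 7.47, 7.99 and 7.30 on the SH-80 arrays. The 6 channels labelled control therefore covered a 10.8-fold range of Ccl2 signal, and the 6 labelled with a compound a 1.04-fold range. Ccl2 lay at -0.25 ± 0.47 for SH-42 (log2 ± SE, n = 3, limma adjusted p = 0.749). For SH-80 it lay at 1.39 ± 0.47, a 2.63-fold ratio with a 95% interval of 1.19 to 5.78 (adjusted p = 0.0912).

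The Ccl2 call for SH-80 depended on which arrays set the spread. With the SH-80 arrays fitted alone, Ccl2 passed at an unchanged 1.39 (limma adjusted p = 0.00372), where 5 of 9 ligand genes and 38.2% of all genes passed. Without SH-42 replicate 1 it also passed (adjusted p = 0.00977), with 4 of 9 ligand genes and 38.8% of all genes. With slide as a fixed block its value was 0.43 (limma adjusted p = 0.728). All SH-80 arrays were on slide 2, so this block shifts each SH-80 value by a slide gap taken from the SH-42 arrays alone. Such values, here and for the genes below, therefore do not show a change of the SH-80 ratios themselves. For SH-42, Ccl2 turned to 0.48 without SH-42 replicate 1 (adjusted p = 0.302), where 0 of 9 ligand genes and 1.84% of all genes passed.

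Ccl12, another Ccr2 ligand, gave ratios of -0.10, -0.53 and 1.16 on the SH-42 arrays and of 0.72, 0.93 and 0.96 on the SH-80 arrays. SH-42 replicate 3 was the highest of all 6 and the other SH-42 arrays were below 0. Its Cy3 signal was between 8.89 and 9.20, and its Cy5 signal between 7.83 and 9.73, with the peak on SH-42 replicate 2 and not on replicate 1. Ccl12 lay at 0.17 ± 0.29 for SH-42 (adjusted p = 0.721) and at 0.87 ± 0.29 for SH-80, a 1.83-fold ratio with an interval of 1.12 to 2.99 (adjusted p = 0.0896). On the SH-80 arrays alone it passed (adjusted p = 0.00253). It also passed without SH-42 replicate 3 (adjusted p = 0.0268), where it was the 1 ligand gene of 9 to pass beside 13.3% of all genes. With a fixed slide block, whose slide gap comes from SH-42 arrays alone, it was at 0.14 (limma adjusted p = 0.728).

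Ccl7, the third Ccr2 ligand, was too dim for the test. It was well above background in Cy3 on SH-42 replicate 1 alone and in Cy5 on SH-42 replicates 1 and 2, and in neither channel on any SH-80 array. Its Cy5 signals were 8.96, 7.88 and 6.88 on the SH-42 arrays and 6.52, 6.87 and 6.56 on the SH-80 arrays. The channels labelled control were thus brighter on SH-42 replicates 1 and 2 than elsewhere, and the other 4 values were not well above background, so they have no order. In Cy5 the mean of the SH-42 arrays was 2.35-fold above a limit for the SH-80 arrays. This mean includes replicate 3, not well above background, so 2.35 is not a lower bound and does not hold for that array. The limit is the lowest signal well above background on each dimmer array, or the probe's own signal where that is higher. Values given below as at least use such a limit for the dimmer channel. Its ratios were -1.57, -0.13 and 0.45 on the SH-42 arrays and 1.01, 0.51 and 0.78 on the SH-80 arrays, the latter from signals not well above background. Fitted with no filter, it lay at -0.42 for SH-42 and 0.77 for SH-80 (adjusted p = 0.474 and 0.156). On chromosome 11 in the RefSeq table, Ccl2 and Ccl7 are neighbours among protein-coding genes, with Ccl12 close by, and Ccl3 and Ccl4 are neighbours in another stretch.

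Ccl3, a ligand of Ccr1, gave ratios of -1.48, 0.11 and 1.07 on the SH-42 arrays and of 0.86, 0.74 and 0.86 on the SH-80 arrays. The SH-80 values lay close together and inside the SH-42 range. Cy3 was between 7.82 and 8.15 on the 6 arrays. Cy5 was 9.63 on SH-42 replicate 1 and between 6.87 and 7.71 on the others. Ccl3 lay at -0.10 ± 0.42 for SH-42 (adjusted p = 0.895) and at 0.82 ± 0.42 for SH-80 (adjusted p = 0.217). It passed on the SH-80 arrays alone and without SH-42 replicate 1 (adjusted p = 0.00188 and 0.0148). With slide as a fixed block, its SH-80 value was shifted by the slide gap of the SH-42 arrays to -0.06 (limma adjusted p = 0.965).

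Ccl4, its close relative, gave ratios of -1.60, 0.02 and 0.63 on the SH-42 arrays and of 0.35, 0.52 and 0.79 on the SH-80 arrays. Its Cy3 signal was not well above background on SH-42 replicates 2 and 3. Cy5 was 9.10 on SH-42 replicate 1 and between 6.89 and 7.37 on the other 5 arrays. As for Ccl3, the negative end came from a single array whose control channel was bright. Ccl4 lay at -0.32 ± 0.38 for SH-42 (adjusted p = 0.622) and at 0.56 ± 0.38 for SH-80 (adjusted p = 0.343). On the SH-80 arrays alone and without SH-42 replicate 1 it passed (adjusted p = 0.0101 and 0.0222). With slide as a fixed block, the SH-80 value was shifted by the slide gap of the SH-42 arrays to -0.16 (limma adjusted p = 0.901).

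Ccl5, a ligand of Ccr1 and Ccr3 that is abundant in T cells, varied less. Its ratios were -0.24, -0.19 and -0.03 on the SH-42 arrays and -0.09, -0.31 and 0.51 on the SH-80 arrays. SH-80 replicate 3 was the only positive array, and there Cy5 was at 7.99 against 8.38 to 8.76 on the others. Ccl5 lay at -0.15 ± 0.15 for SH-42 (adjusted p = 0.541) and at 0.04 ± 0.15 for SH-80 (adjusted p = 0.876).

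Cxcl10, the interferon-induced ligand of Cxcr3, gave ratios of -0.16, -0.61 and 0.69 on the SH-42 arrays and of -0.09, -0.08 and -0.64 on the SH-80 arrays. The SH-80 arrays were all below 0, and SH-42 replicate 3 was the only positive array. Cy5 was highest on SH-42 replicate 2, at 9.47, and lowest on SH-42 replicate 3, at 7.72, a 3.36-fold range. Cy3 ran from 8.40 to 8.86, also with SH-42 replicate 2 at the top. Cxcl10 lay at -0.02 ± 0.24 for SH-42 (adjusted p = 0.961) and at -0.27 ± 0.24 for SH-80 (adjusted p = 0.464).

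Cxcl12, a homeostatic ligand of stromal and vascular cells, was tested by its brightest probe, A_51_P172502, which the array file assigns to transcript NM_001012477. The ratios of this probe were -0.40, 0.02 and 0.13 on the SH-42 arrays and -0.17, -0.33 and -0.39 on the SH-80 arrays. The SH-80 arrays were all negative, and only SH-42 replicate 1 among the SH-42 arrays reached as low. Cxcl12 lay at -0.08 ± 0.11 for SH-42 (adjusted p = 0.647) and at -0.30 ± 0.11 for SH-80, a ratio of 0.813 with an interval of 0.676 to 0.977 (adjusted p = 0.109). It passed as negative on the SH-80 arrays alone (adjusted p = 0.0178) and without SH-42 replicate 1 (adjusted p = 0.0148).

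The other Cxcl12 probe, A_55_P1966204 (NM_021704), went the opposite way on the SH-80 arrays. Its ratios were -0.92, -0.04 and 0.55 on the SH-42 arrays and 0.48, 0.50 and 0.49 on the SH-80 arrays. With each probe tested on its own, it lay at 0.49 ± 0.24 for SH-80 (limma adjusted p = 0.205) against -0.30 ± 0.11 for the brighter probe (adjusted p = 0.108). The direction of Cxcl12 therefore differs between its probes, and the mean of both probes for SH-80 was 0.09.

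Cxcl16, which exists as a membrane-anchored scavenger and as a shed attractant, gave ratios of -0.84, -0.04 and 0.03 on the SH-42 arrays and of 0.03, -0.09 and 0.19 on the SH-80 arrays. Only SH-42 replicate 1 lay clearly away from 0. There Cy5 was at 10.49, against 9.35 to 9.63 on the other arrays, while Cy3 stayed between 9.45 and 9.65. Cxcl16 lay at -0.28 ± 0.17 for SH-42 (adjusted p = 0.343) and at 0.04 ± 0.17 for SH-80 (adjusted p = 0.880). Without SH-42 replicate 1 its SH-42 value was -0.01. With median centring in place of loess it passed for SH-42 at -0.58, as did Cxcl12 at -0.40, so that 2 of 9 ligand genes passed beside 37.6% of all genes, and Cxcl12 passed for SH-80 at -0.52 (1 of 9, beside 15.1%).

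Cx3cl1, the neuronal ligand of the microglial receptor Cx3cr1, ran the other way on that array. Its ratios were 1.07, 0.02 and 0.23 on the SH-42 arrays and 0.19, 0.11 and 0.00 on the SH-80 arrays. All 6 were at or above 0, and the 1.07 of SH-42 replicate 1 stood out. There Cy5 was at 11.25, against 12.11 to 12.32 on the other 5, and Cy3 was between 12.29 and 12.36 on all 6. Cx3cl1 lay at 0.44 ± 0.19 for SH-42 (adjusted p = 0.227) and at 0.10 ± 0.19 for SH-80 (adjusted p = 0.744). Without SH-42 replicate 1 its SH-42 mean was 0.12.

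**Figure D2:**
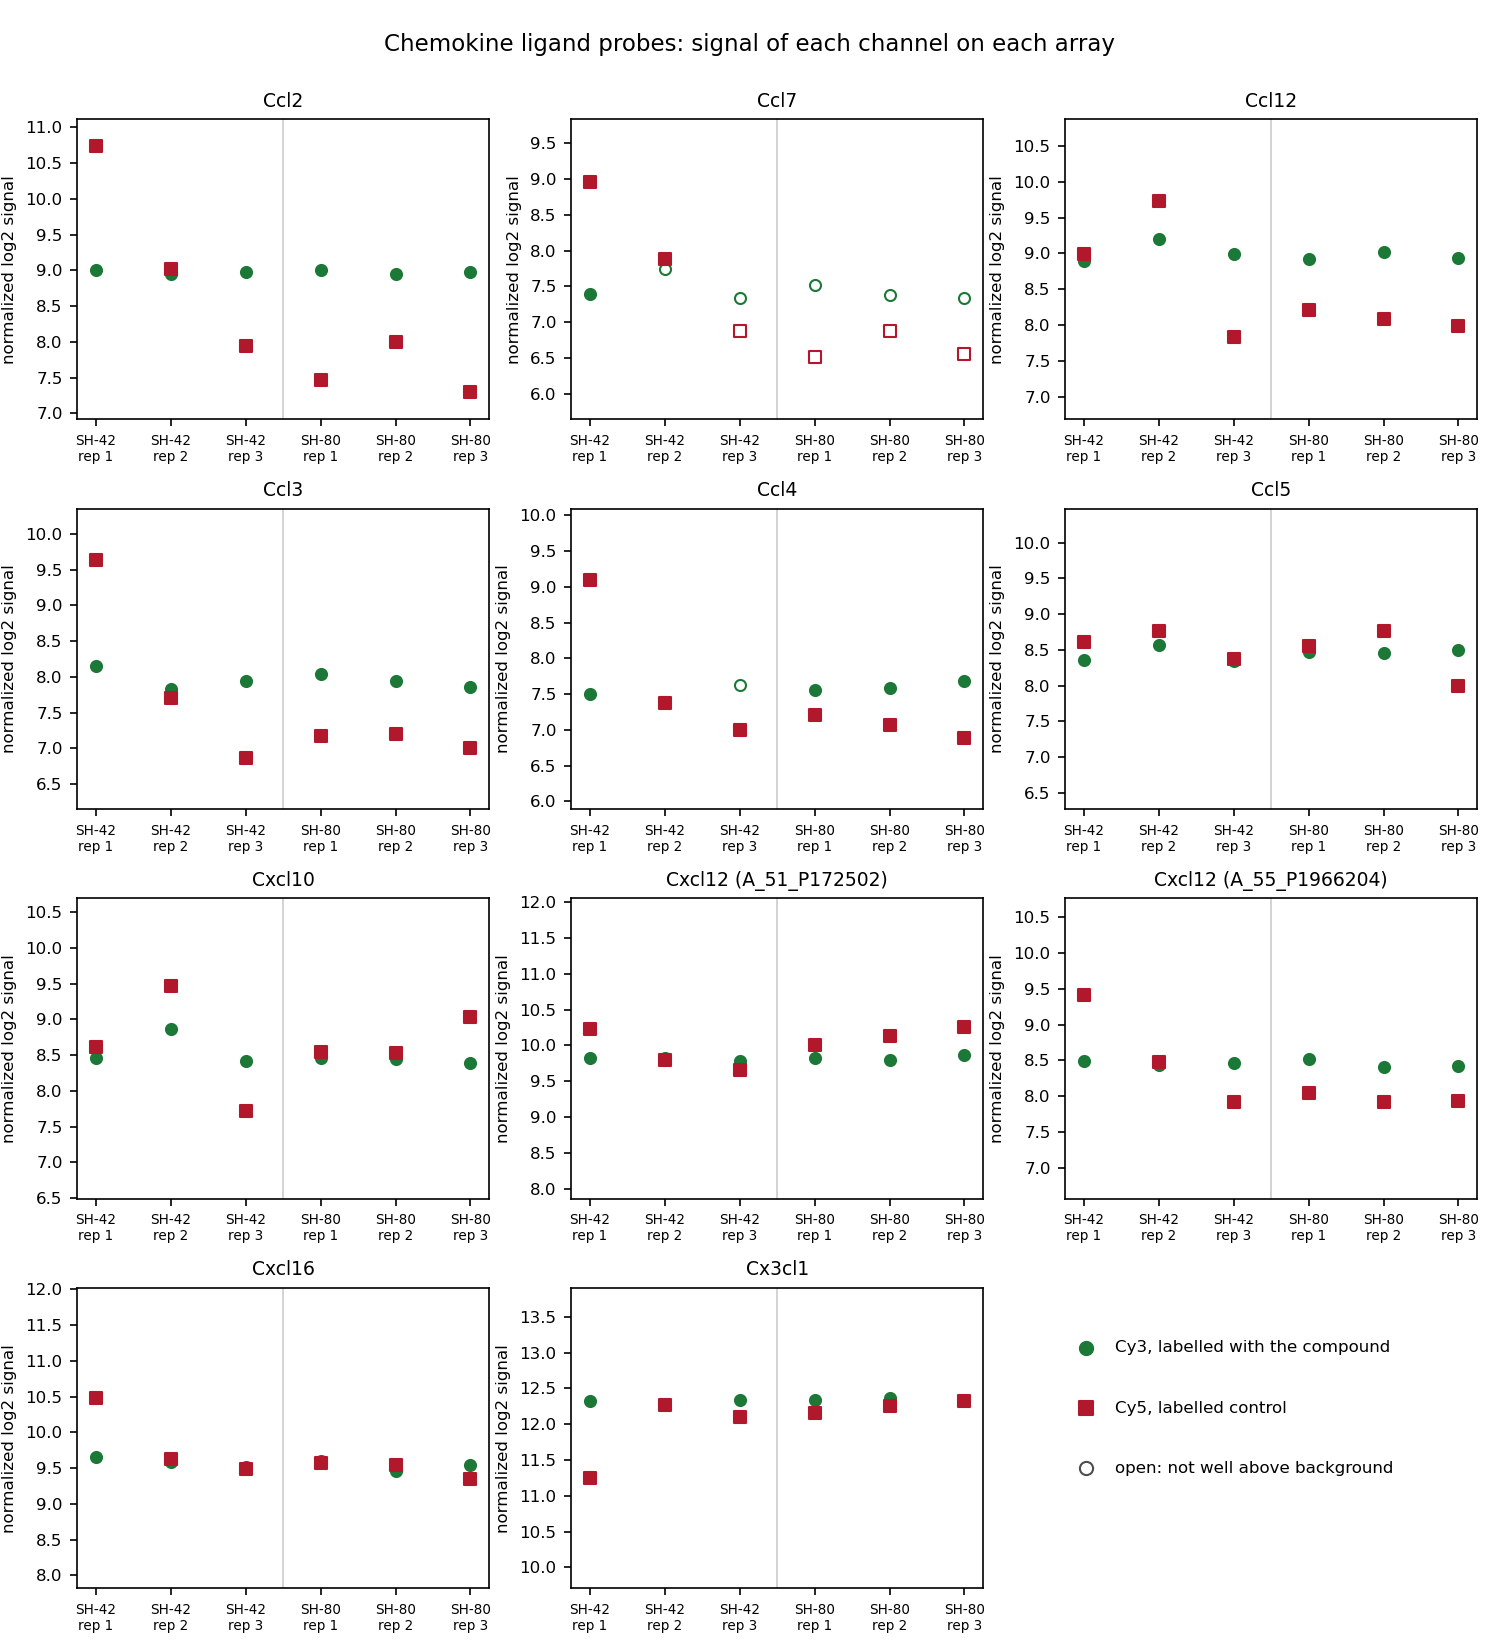
Normalized log2 signal (y axis) of each of the 11 probes on each of the 6 arrays (x axis), with circles for Cy3, labelled with the compound, squares for Cy5, labelled control, and open symbols where the spot was not well above background; every panel covers the same number of log2 units, and hidden circles lie under squares. Cy3 of Ccl2 stays between 8.95 and 9.0, whereas Cy5 runs from 7.30 to 10.73 with SH-42 replicate 1 at the top.

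Seen across the arrays, the ligand genes differed far more in Cy5, labelled control, than in Cy3, labelled with a compound. For each of the 9 genes tested, the span between the highest and the lowest array was larger in Cy5 (9 of 9), with a median of 1.75 log2 units in Cy5 and 0.22 in Cy3. Over all genes the medians were 0.38 and 0.18, and Cy5 had the larger span in 19021 of 24059. Without SH-42 replicate 1 the Cy5 span of Ccl2 was 1.72, that of Ccl12 1.90 and that of Cxcl10 1.75, so these genes varied among the other arrays as well. By contrast, the Cy5 span of Cx3cl1 was then 0.21 and that of Cxcl16 0.28.

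**Figure D3:**
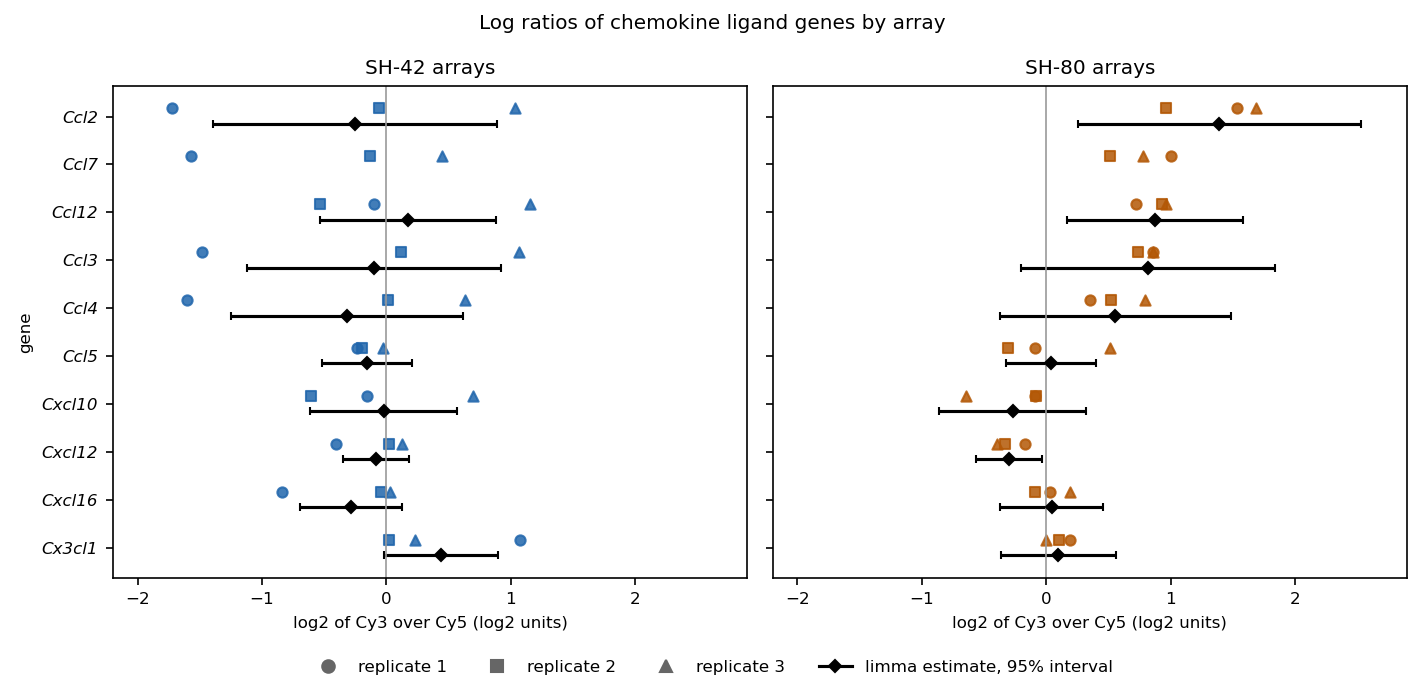
Log2 ratio of Cy3 over Cy5 (x axis, log2 units) for the 10 ligand genes on each SH-42 array (left) and SH-80 array (right); the symbol gives the replicate, and black diamonds with bars give the limma estimate with its 95% interval, which Ccl7 lacks because it was not tested. Ccl2, Ccl7, Ccl12, Ccl3 and Ccl4 are positive on all 3 SH-80 arrays and scattered around 0 on the SH-42 arrays. The Ccl7 values of the SH-80 arrays come from signals not well above background. Cx3cl1 is also positive on all 3 SH-80 arrays, if only at 0.00 on replicate 3, and on all 3 SH-42 arrays.

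Of the 9 ligand genes tested, 5 were positive on all 3 SH-80 arrays (29.4% of all genes) and 2 were negative on all 3 (38.9%). On the SH-42 arrays 1 was positive on all 3 (19%) and 1 was negative on all 3 (28.2%). The 5 were Ccl2, Ccl3, Ccl4, Ccl12 and Cx3cl1, and the last of these reached only 0.00 on SH-80 replicate 3. The median of the 9 was -0.10 for SH-42 and 0.10 for SH-80, beside -0.03 for both over all genes. For SH-80 the estimate was positive for 7 of 9 genes (44.3% of all genes), and for SH-42 for 2 of 9 (43.0%). These comparisons may share control RNA, and their values are set side by side only.

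Both compounds were given at the same dose and read at the same day, so the difference SH-42 minus SH-80 was fitted for this 1 pair, with p-values adjusted over all genes. None of the ligand genes passed (0 of 9), and 0% of all genes did (0 of 24079, limma). By an unadjusted p under 0.05 the count was 1 of 9, Ccl2, beside 3.92% of all genes. Ccl2 differed by -1.65 ± 0.67, with an interval of -3.26 to -0.04 (adjusted p = 0.691). The intervals reached from -2.36 to 0.53 for Ccl3, from -2.19 to 0.44 for Ccl4 and from -1.70 to 0.30 for Ccl12, so they hold 0 as well as differences of more than 1 log2 unit. They were narrower for Cxcl12 (-0.16 to 0.59), Ccl5 (-0.70 to 0.32) and Cxcl16 (-0.91 to 0.26). Cxcl10 and Cx3cl1 differed by 0.25 and 0.34, with intervals of -0.58 to 1.08 and -0.31 to 0.99. A p above the threshold does not show that the compounds act alike.

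The channel fits give each side of this difference. In Cy3, the channels labelled SH-42 and SH-80 differed by 0.00 ± 0.033 for Ccl2, with an interval of -0.08 to 0.08. For all 9 genes the Cy3 difference lay between -0.11 (Ccl4) and 0.14 (Cxcl10), 0 of 9 passed, and 0% of all genes did (limma, 9.28% and 0 of 9 ligand genes unadjusted). In Cy5, where both groups are labelled control, Ccl2 differed by 1.65 ± 0.68, with an interval of -0.0028 to 3.29 (adjusted p = 0.700). There 0 of 9 ligand genes and 0% of all genes passed (limma, 3.6% and 0 of 9 unadjusted). The signals of SH-42 and SH-80 arrays overlapped for all 9 genes in the ratio, in Cy3 and in Cy5, where 13.5%, 16.3% and 13.3% of all genes did not overlap.

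**Figure D4:**
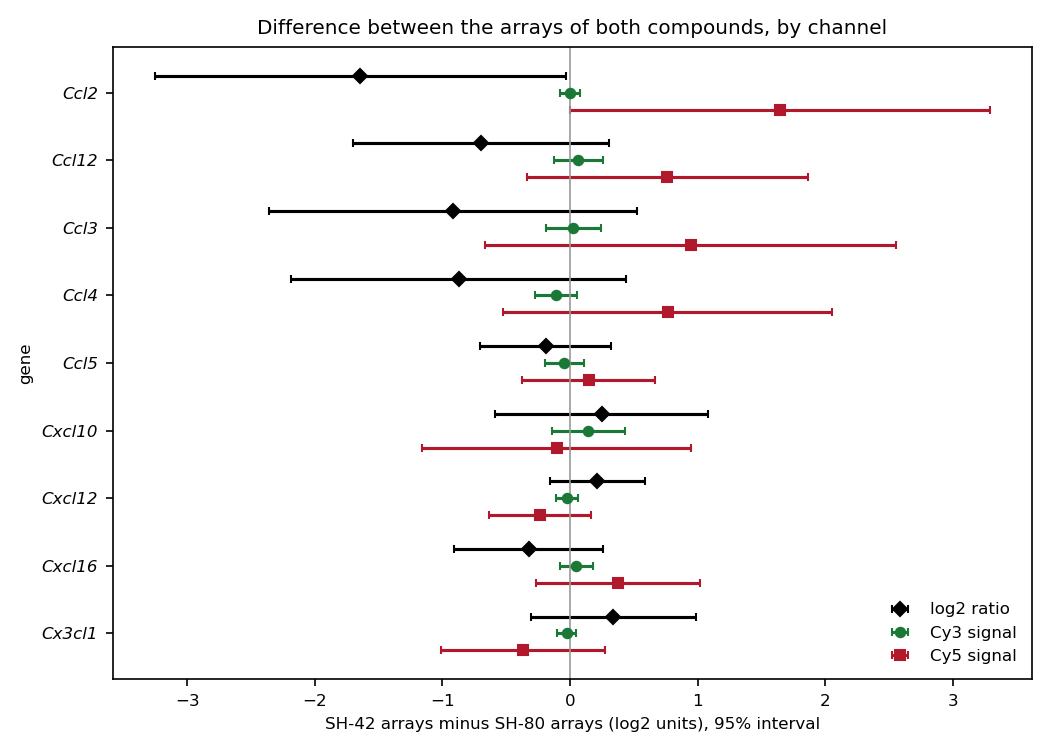
Difference between SH-42 and SH-80 arrays (x axis, log2 units) for the 9 ligand genes tested, with 95% limma intervals, for the log2 ratio (black), the Cy3 signal (green) and the Cy5 signal (red). For Ccl2 the Cy3 difference is 0.00 and the Cy5 difference 1.65, the size of the -1.65 of the ratio with the sign turned.

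Within slide 2, which holds SH-42 replicate 3 and the 3 SH-80 arrays, the differences were smaller than in the pooled fit for 7 of 9 ligand genes. SH-42 replicate 3 minus the SH-80 mean was -0.36 for Ccl2, 0.25 for Ccl3, 0.07 for Ccl4 and 0.28 for Ccl12, so 3 of these 4 turned sign. It was -0.07 for Ccl5, -0.01 for Cxcl16 and 0.13 for Cx3cl1. For Cxcl10 it was 0.97 and for Cxcl12 0.43, above the 0.25 and 0.22 of the pooled fit. Slide 1 holds SH-42 arrays only and gives no difference. With a single SH-42 array on slide 2, slide and compound can be told apart only through that array. Leaving out SH-42 replicate 1 instead gave -0.91 for Ccl2, -0.23 for Ccl3, -0.23 for Ccl4 and -0.56 for Ccl12.

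For the 6 ligand genes well above background in both channels on all arrays whose log ratio spanned at least 1, the genes most like each over the 6 arrays were taken from 13051 named genes that were also well above background throughout. Ccl2 was followed most closely by Fxyd1, a regulator of the sodium pump (r = 0.999, and 0.997 without SH-42 replicate 1), and Dbi, a binding protein of acyl-CoA, was also among its 3 nearest genes. For Ccl3 these were Tbxas1 (thromboxane synthase, r = 0.999), Unc93b1, which carries nucleic acid sensing Toll-like receptors, and Parp10. Ccl12 was nearest to the interferon-induced Isg15 (r = 0.990, and 0.992 without SH-42 replicate 1), then to Bysl and Proser1. For Cxcl10 the list was Fam78b (r = 0.990), Recql4 and Nfs1. The nearest to Cxcl16 was Cdk5rap2 (r = 0.999), then Ciao2a and Ifngr2, and the nearest to Cx3cl1 was Rcan2 (r = 1.00), then Arhgap44 and Bok. These are the highest values of many genes over few arrays that may share control RNA, and are given as a description.

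The receptors of these ligands were mostly dim. Of 18 chemokine receptors, 11 were tested, and Ccr1, Ccr2, Cxcr2 and Cxcr3 were among those well above background on fewer than 3 arrays. For SH-80, 0 of 11 passed as positive and 2 as negative, beside 4.62% and 10.1% of all genes. For SH-42 0 of 11 passed, beside 0.602% in either direction. Ccr9, the gut homing receptor of Ccl25, lay at -0.48 ± 0.085 for SH-80 (limma adjusted p = 0.0289). Its ratios were -0.53, -0.49 and -0.40 on the SH-80 arrays and 0.04, -0.04 and -0.35 on the SH-42 arrays. Ccr10 was not well above background in Cy3 on any array, and on the SH-80 arrays Cy5 was at least 1.18-fold brighter (adjusted p = 0.0319).

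Cx3cr1, the fractalkine receptor of microglia, mirrored Cx3cl1 on 1 array. Its ratios were -1.72, -0.26 and 0.79 on the SH-42 arrays and 0.30, 0.10 and 0.28 on the SH-80 arrays. SH-42 replicate 1 was thus lowest for the receptor and highest for the ligand. Cx3cr1 lay at -0.40 ± 0.41 for SH-42 (adjusted p = 0.563) and at 0.23 ± 0.41 for SH-80 (adjusted p = 0.726). Cxcr6, the receptor of Cxcl16, lay at -0.11 and -0.17 (adjusted p = 0.289 and 0.102). Of 5 atypical receptors, which bind chemokines without G protein signalling, 4 were tested. For either compound 0 passed, beside 0.602% of all genes for SH-42 and 14.7% for SH-80. Ackr1 lay at 0.53 and 0.05 and the Cxcl12 scavenger Ackr3 at -0.24 and -0.05 for SH-42 and SH-80. Ackr2 was not well above background in Cy3 on any array.

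Among 26 other chemokine ligands, 25 were on the array and 14 were tested. For SH-80, 2 passed as positive and 1 as negative, beside 4.62% and 10.1% of all genes, and for SH-42 0 passed, beside 0.602%. Cxcl9, the partner of Cxcl10 at Cxcr3, lay at -0.64 ± 0.088 for SH-80 (adjusted p = 0.0242). It was negative on all 6 arrays, at -0.54, -0.18 and -0.58 for SH-42 and -0.58, -0.63 and -0.70 for SH-80, and its other probe was not well above background. A dye effect on this probe cannot be told apart from an effect of the compound. Both positive genes rested on dim spots. Ccl26 and the neutrophil attractant Cxcl1 were well above background in Cy3 on 2 and 1 of 3 SH-80 arrays and in Cy5 on none. Their mean Cy3 signals over the SH-80 arrays were 1.79-fold and 1.75-fold above the limit for Cy5. These means include arrays where Cy3 was not well above background, so neither value is a lower bound. The test of their log ratios used these dim signals as well (limma adjusted p = 0.0304 and 0.0339). The median of the 14 was 0.00 for SH-42 and 0.32 for SH-80.

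Upstream of chemokine genes, 16 of 20 cytokines, sensors and transcription factors were tested. For either compound 0 passed, beside 0.602% of all genes for SH-42 and 14.7% for SH-80. For SH-80 the estimate was positive for 13 of 16 (44.3% of all genes), with a median of 0.18. For SH-42 it was positive for 6 of 16 (43.0% of all genes), with a median of -0.14. The NF-kB inhibitor Nfkbia, itself an NF-kB target, had the smallest p, at 0.42 ± 0.12 for SH-80 (adjusted p = 0.0623) and 0.03 ± 0.12 for SH-42. Irf7, of the interferon response, lay at 0.26 for SH-80 (adjusted p = 0.144). Tnf, Il1a, Ifng and Ifnb1 were well above background on fewer than 3 arrays. Of 5 proteases that cut or shed chemokines, 5 were tested and 0 passed, beside the same shares of all genes. Mmp9 lay at 0.49 and 0.33 (adjusted p = 0.153 and 0.172), and the Cx3cl1 sheddase Adam17 at -0.19 and -0.13, with Cy3 well above background on 2 of 3 SH-42 and 1 of 3 SH-80 arrays. Dpp4 was well above background in Cy3 on 1 array only. Of 4 adhesion molecules of endothelium, 2 were tested, and Selp passed for SH-80, with Cy5 at least 1.11-fold brighter than a Cy3 signal not well above background (adjusted p = 0.0488, beside 10.1% of all genes called negative for SH-80). For SH-42 minus SH-80, 0 genes of these lists passed.

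Markers of microglia, monocytes and reactive glia varied over the arrays beside the ligand genes. The median ratio of 15 microglia and macrophage markers, of 16 listed, was -1.65, 0.37 and 1.49 on SH-42 replicates 1 to 3 and 1.29, 1.16 and 1.49 on the SH-80 arrays. That of the 9 ligand genes was -0.40, -0.04 and 0.63, and 0.19, 0.11 and 0.51. Both were lowest on SH-42 replicate 1. Summed over the list, the Cy5 signal of the microglia markers was 18288 to 161710 on the SH-42 arrays and 18294 to 23988 on the SH-80 arrays. Their Cy3 signal was 50475 to 52983 and 50623 to 52659. All 15 were well above background in both channels on all arrays.

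The 8 reactive glia genes, of 8 listed, had medians of -1.80, -0.19 and 1.22 on the SH-42 arrays and of 0.97, 0.83 and 0.99 on the SH-80 arrays. Their summed Cy5 signal was 13477 to 109052 and 17396 to 20842. For 4 of 6 monocyte markers the medians were -1.84, 0.09 and 0.74, and 0.84, 0.49 and 0.57. Their summed Cy5 signal was 2346 to 19591 and 2451 to 3169, and Ccr2 was well above background on 1 array only. Of 8 T and NK cell markers 4 were tested, with medians between -0.30 and -0.17 on the 6 arrays and a summed Cy5 signal of 6799 to 7795 and 7197 to 7206. For SH-80, 1 of these 4 passed as negative, beside 10.1% of all genes. Cd4 was the brightest of the 4, with mean Cy5 signals of 12.27 on the SH-42 and 12.22 on the SH-80 arrays. Gzma was not well above background in Cy3 on any array. Cd3d and Cd3g were not well above background on any array, nor was the Cd8a probe A_52_P150547. The 8 ganglion cell markers had medians of 1.05, -0.18 and -0.26, and -0.19, -0.07 and -0.42, highest on SH-42 replicate 1 as for Cx3cl1. The 11 lens markers, which can mark tissue carried over from the dissection, had medians of 1.54, 0.10 and -0.68, and 2.74, -1.10 and 2.62. Their summed Cy5 signal was 258853 to 910268 on the SH-42 arrays, and on the SH-80 arrays it was highest on replicate 2.

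Skeletal muscle markers, which can mark carried-over tissue too, were also lowest on SH-42 replicate 1. The medians of the 7 tested, of 8 listed, were -2.03, 0.06 and 0.37 on the SH-42 arrays and 0.44, -0.82 and 0.44 on the SH-80 arrays. Only 2 of the 7 were well above background in both channels on all 6 arrays, so these medians rest partly on dim signals. Their summed Cy5 signal was 12193 on SH-42 replicate 1 and 11709 on SH-80 replicate 2, against 1189 to 1451 on the other arrays. The 9 Müller glia markers had medians of -1.06, 0.00 and 0.00, and 0.05, 0.04 and 0.24, with a summed Cy5 signal of 296820 to 564147 and 279161 to 364278. Those of the 7 endothelial markers were -0.25, 0.03 and 0.51, and 0.26, 0.12 and 0.17, with a summed Cy5 signal of 8864 to 21396 and 9682 to 11103. For 5 of 8 neutrophil markers they were -0.19, 0.00 and 0.01, and -0.07, -0.01 and -0.05. Their summed Cy5 signal was 2785 to 7135, highest on SH-42 replicate 1, and 3007 to 3127. These medians hide a split between genes, described after the values were seen. S100a8 and S100a9 lay at -2.43 and -2.94 on SH-42 replicate 1, Elane at -0.19. On all other arrays S100a8 and S100a9 were positive, though S100a8 was well above background in Cy5 on only 2 of 3 arrays per compound. Elane, Mpo and Camp had a mean Cy5 signal above Cy3 on the SH-80 arrays. The muscle, Müller glia, endothelial and neutrophil lists, like the microglia, monocyte and reactive glia lists, had their lowest median on SH-42 replicate 1. For 5 of 6 pigment epithelium markers the medians were positive on all 6 arrays, from 0.28 on SH-42 replicate 1 to 1.18 on SH-42 replicate 3. The part of these cell types in the values of the ligand genes was not tested.

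**Figure D5:**
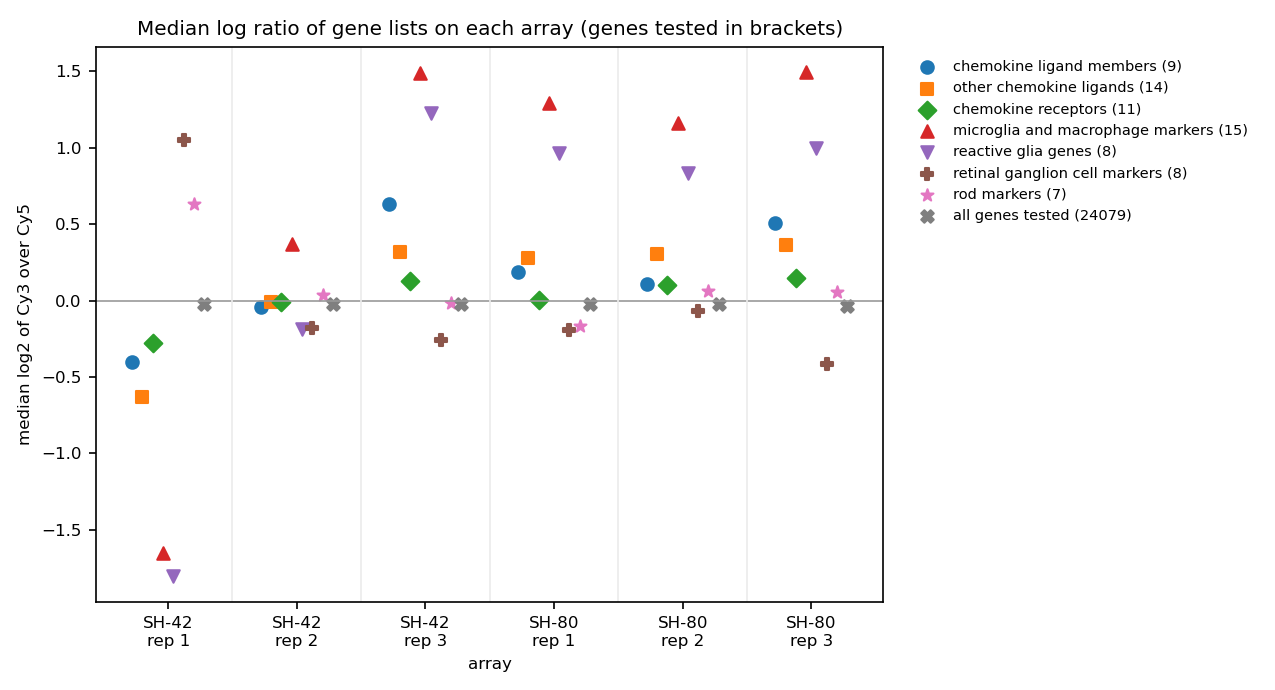
Median log2 ratio of Cy3 over Cy5 (y axis) of each gene list on each of the 6 arrays (x axis), with the number of genes tested in brackets. The microglia and reactive glia lists run from -1.65 and -1.80 on SH-42 replicate 1 to 1.49 and 1.22 on SH-42 replicate 3, the ligand genes from -0.40 to 0.63, and the ganglion cell markers lie at 1.05 on SH-42 replicate 1.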

How the data were processed

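Spot and local background intensity of both dyes were deposited, per the file headers, beside a log10 ratio of processed red over green that was not used here. Those headers name Agilent Feature Extraction 11.0.1.1, and the submitters' processing notes name 9.3.2.1. The deposited value table holds log2 of processed Cy5 over Cy3 plus a constant per array, judged from its values (r = 0.9997 to 0.9999 with the scanner signals of the same array, 99.7% of values within 0.01). Its column medians were -0.0531, -0.0606 and -0.0612 for SH-42 and -0.0611, -0.0464 and -0.0754 for SH-80. Which RNA each dye carries is given by the labels alone and was not settled by the values. Over all genes, the median span between arrays was 0.38 log2 units in Cy5, labelled control, and 0.18 in Cy3, labelled with a compound. Whether the labels hold was not tested.

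Median signals were corrected by normexp (offset 50) and loess in limma 3.58.1 (R 4.3.3). Spots flagged as outliers were dropped, on SH-80 replicate 3 including 1 of the 10 Ccl2 spots. Probes were kept if either channel was well above background on 3 arrays or more, and the brightest was taken per gene. Symbols came from RefSeq for 26055 of 39429 probes (66.1%). One coefficient per compound was fitted over all 6 arrays with lmFit and eBayes, two-sided, with Benjamini-Hochberg adjustment over all genes at 0.05. Channel signals were scaled by Aquantile after loess and fitted the same way. The number of arrays limits the precision. The fit was tested on simulated data. Their noise was independent between genes and arrays, with no outlying array, slide difference or shared control RNA. How the fit behaves with those was not tested.

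Named genes are all members, the genes of each list past the threshold or, with none, up to 3 of smallest p, and the 3 most correlated genes of each member well above background on all arrays with a ratio span of at least 1 (6 members). Values of a few such genes are not reported here. The members, lists and tests were chosen with earlier results of these data known. Alternatives covered background, normalization, filter, probes, slide, replicate number and each array left out.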

Additional observations from a re-analysis of the deposited data

Results flagged for a closer look

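For 4 of 11 probes, the Cy5 signal of a single array lay far from those of the other 5 channels labelled control. The gap to the nearest array, as a share of the whole range, was above Dixon's 95% critical value for 6 values. It was 0.696 for Ccl3, 0.782 for Ccl4 and 0.757 for Cxcl16, each highest on SH-42 replicate 1, and 0.801 for Cx3cl1, lowest on the same array. Chance alone passes this limit in about 1 of 20 groups, and the 4 probes share their arrays.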

How the results depend on the processing

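For SH-42 against control, 145 genes passed over all genes (9.66% positive). The count was 3187 without background correction (36.5% positive), 9062 with median centring in place of loess (19.1%), 4345 with processed signals, 3774 with the deposited value table (29.1%) and 77 with the mean of a gene's probes. It was 0 in limma with offset 0, slide as a fixed block, the replicate block and SH-42 arrays alone (5304, 5392, 4215 and 2380 genes unadjusted). With 1 array left out it ranged from 0 to 442. The highest count came on leaving out replicate 1 of SH-42, and its replicate 2 gave 1. Its replicate 3 and each SH-80 array gave 0 (limma, 3040 to 4498 unadjusted). For SH-80, 3542 genes passed (31.4% positive), against 5575 with processed signals (15%), 2101 with the strict filter and 9188 on SH-80 arrays alone (41.7%). It was 0 in limma with slide as a fixed block and the replicate block (2990 and 7162 unadjusted), and 0 to 9344 with 1 array left out. The slide block shifts SH-80 values by a slide gap taken from SH-42 arrays alone. Dropping replicate 1 of SH-42 gave the 9344, dropping its replicate 2 gave 2266, and dropping each SH-80 array gave 0 (limma, 4663 to 5928 unadjusted). Slide as a random block gave 128 and 2370. Chosen after seeing the data, keeping outlier spots gave 144 and 3538, and testing each probe gave 134 and 4112. With median centring the median gene lay at -0.25 for SH-42 and at -0.15 for SH-80, against -0.03 for both with loess.

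Of the ligand genes, median centring called 2 for SH-42 (Cxcl16 at -0.58 and Cxcl12 at -0.40) and 1 for SH-80 (Cxcl12 at -0.52), beside 37.6% and 15.1% of all genes. SH-80 arrays alone called 5, and leaving out 1 array 0 to 4. Leaving out SH-42 replicate 3 gave 819 genes in the Cy3 difference, 0 of them ligand genes, and the other arrays 0. Values of ligand genes not called turned sign in 16 of 170 cases for SH-42, 13 of 170 for SH-80 and 6 of 161 for their difference. With each compound's mean taken off every gene, same-numbered arrays correlated at -0.15, -0.43 and 0.18, and the other pairs at -0.30 to 0.35. With 3 arrays per compound, these values cannot show whether the replicate number pairs arrays. Under the replicate block 0 ligand genes passed. The cause of these shifts was not tested.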

Other observations

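Of the 14 other chemokine ligands tested, 3 with wide ranges are given here, chosen after their values were seen. Pf4, platelet factor 4, had ratios of -3.23, 1.43 and 2.85 on SH-42 replicates 1 to 3 and of 2.74, 2.18 and 3.47 on the SH-80 arrays. Its Cy5 signal was 14.31 on SH-42 replicate 1 and 7.67 on SH-80 replicate 3, while Cy3 stayed between 10.69 and 11.14. Ccl6, a macrophage chemokine, had ratios of -2.21, 0.34 and 2.29, and 1.97, 1.83 and 2.41. Cxcl5, a neutrophil attractant, had -1.17, 0.27 and 1.58, and 1.53, 1.45 and 1.68. For SH-80 the 3 genes lay at 2.80 ± 1.06, 2.07 ± 0.74 and 1.55 ± 0.45 and did not pass (limma adjusted p = 0.116, 0.104 and 0.0654). Cxcl5 was well above background in Cy5 on 2 of 3 SH-80 arrays. Ccl9, Ccl25, Cxcl14 and Ccl19 spread less. Ccl9, also made by macrophages, had ratios of -1.22, -0.17 and 0.22, and 0.01, -0.19 and 0.15. Ccl25 and Cxcl14 were negative on all SH-80 arrays, and Ccl19 lay between -0.15 and -0.01 on the 6 arrays.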
